A study of Mus musculus with 15 samples.

Results

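The step from E8.75 to E9.25 (E, embryonic day) was followed in heart cells of mouse embryos that carry Nkx2-5Cre together with the Rosa26tdTomato reporter. All cells with at least 1000 genes above 0 CPM (counts of a gene scaled to a fixed total per cell) were taken from the 2 libraries of each stage, which gave 368 of 376 cells, out of 1339 such cells in the 15 libraries of the series. At E8.75, 94 and 88 cells passed in libraries 1 and 2, and at E9.25, 93 and 93 cells. The cells nearest the limit had 1024, 1028 and 1266 genes inside it and 965, 916 and 756 outside it.

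The series holds single-cell RNA-seq of Nkx2-5Cre and Isl1Cre hearts at 4 stages from E7.75 to E9.25, and by its title it concerns how cells of the second heart lineage are related and signal to each other. Every group carries the same reporter allele, which a cell and its descendants keep once Cre has acted, so cells that had ever used the driver are marked at both stages. The labels do not say whether the Cre was knocked into the Nkx2-5 gene, and cells were either sorted or only dissociated before they were picked one by one, so a picked cell need not be a marked one. Both E8.75 libraries carry embryo number 1 and both E9.25 libraries carry embryo number 2. Each stage is therefore probably a single embryo (libraries 1 and 2 being its parts), p-values reflect the spread of libraries alone, possibly a technical spread, and stage and embryo cannot be told apart. The Isl1Cre libraries used for comparison were 2 at E8.75 (embryo number 1, 143 cells) and 1 at E9.25 (embryo number 1, 91 cells).

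During this interval the looped heart tube begins to form chambers: the outer curvature switches on natriuretic peptide genes and specialises as working myocardium, while the inflow and outflow poles go on receiving cells from the posterior and anterior second heart field. T-box factors, among them Tbx5 towards the inflow and Tbx3 in slow-conducting myocardium, help to set these regions apart. The endocardium lines the tube and exchanges signals with the myocardium across a matrix called the cardiac jelly.

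The 4 libraries held 11423717 to 20279001 recovered counts, with 101792 to 123962 counts and 5238 to 6101 genes in the median cell. Cells were clustered over the whole series and classed by markers, with blood and sex-linked genes left out of the clustering. These genes were also left out of the leading genes that named a cluster, so no cell could be classed as blood. Cardiomyocyte-like cells made up 85 of 94 and 84 of 88 cells at E8.75 and 79 of 93 and 75 of 93 at E9.25. Endothelial-like cells were 8 of 94 (8.5%, exact 95% binomial interval 3.7 to 16.1) and 3 of 88 (3.4%, 0.7 to 9.6) at E8.75, against 14 of 93 (15.1%, 8.5 to 24) and 18 of 93 (19.4%, 11.9 to 28.9) at E9.25. The remaining cell of each E8.75 library stayed unnamed. Of the clusters that hold the cardiomyocyte-like cells, some differ in size between the stages. A cluster led by Tnni3 and Trdn has 38 and 40 of them at E8.75 and 7 and 4 at E9.25. A cluster led by Nppa and Myl2 has 21 and 14, then 34 and 26. A cluster led by Myh7 and Hspb1 has 14 and 21, then 27 and 33. Another, led by Cck and Myl2, overlaps between the stages, with 7 and 4, then 3 and 6. The last, with fewer counts per cell, has 5 and 5, then 8 and 6. The shares of the cardiomyocyte-like and endothelial-like classes did not overlap between the stages. With 2 libraries against 2 an exact two-sided permutation test cannot reach 0.05 (there are 6 orders), so these shares were not tested. How the cells were picked can also set them. In means over all cells of a library, fewer cells of a type and less RNA per cell cannot be told apart unless a class is taken alone. Tnnt2, a defining cardiomyocyte gene, stood at 4302 to 6566 mean CPM in these libraries. Summed macrophage markers were at 2.4 to 5.1 CPM, neural markers at 6.8 to 33.8 and epicardial markers at 139 to 202.

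Sex-linked and globin genes set the stages apart and are given first. The sex-linked genes mark the embryos, and the source of the globin RNA was not tested. Eif2s3y, a Y-linked translation factor gene, was at 69.6 and 50.4 mean CPM in the E8.75 libraries and had no count in either E9.25 library, which puts it at least 698-fold lower against a floor of 3 counts over the group. Uty, also on the Y chromosome, was at 23.5 and 24.2 CPM and then at 0, at least 268-fold lower. Xist, the RNA that silences one X chromosome in females, was at 1.24 and 0.77 CPM at E8.75 and 62.5 and 171 at E9.25 (log2 change 5.70 ± 0.48 SE, adjusted p = 1.16e-06). Ddx3y and Kdm5d, also Y-linked, fell too; Kdm5d lost its call without E8.75 library 1 or either E9.25 library (adjusted p up to 0.159). The E8.75 libraries thus carry male transcripts and the E9.25 libraries female ones, and sex cannot be told apart from stage here. Xist overlaps its antisense gene Tsix, and whether the counting used strand is not stated in the sources used here.

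Embryonic globin genes were abundant at E8.75 and nearly absent at E9.25. Hbb-bh1, which encodes an embryonic beta-like globin, stood at 628 and 547 mean CPM at E8.75 and at 0.15 and 0.25 at E9.25 (log2 change -8.93 ± 0.48, adjusted p = 2.12e-09). Hba-x, the embryonic alpha-like globin, stood at 592 and 511 CPM and then at 0.60 and 0. In each E8.75 library 1 cell held most of this RNA, with 38813 and 43241 CPM of Hbb-bh1. The cell of library 1 was unnamed and that of library 2 fell among the cardiomyocyte-like cells, and neither could be classed as blood. Without these cells the means were 217 and 56.1 CPM, and Hbb-bh1 was still found in 93 of 94 and 80 of 88 cells, against 3 of 93 and 2 of 93 at E9.25. The median cell held 162 and 31.6 CPM of Hbb-bh1, so the low level was spread over nearly all E8.75 cells, and it differed between the 2 libraries. Hbb-y, Alas2 and Klf1 also fell, which makes 5 of the 7 tested blood genes; without one of the E9.25 libraries the weakest adjusted p was 0.0706 for Hbb-y (library 1), 0.263 for Alas2 and 0.255 for Klf1 (library 2), and Alas2 and Klf1 could lose their call with either. A gene was tested if it reached 5 CPM in 2 or more of the 15 libraries. Alas2 and Klf1 did so only in the 2 E8.75 libraries, where they were high, so the filter favoured their fall. They were not tested with either of these libraries left out. The summed level of the blood genes was 1425.5 and 1190.6 CPM at E8.75 and 19.1 and 34.5 at E9.25. The part of free blood RNA in the other results was not tested.

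Of 10670 genes tested in all cells (5 CPM or more in 2 or more of the 15 libraries), 182 passed limma's test at an adjusted p of 0.05, which is 1.71%. Of these, 90 were higher at E9.25 (0.843% of all genes) and 92 lower (0.862%); 68 rose and 61 fell by a factor of 2 or more. With edgeR on summed counts the split was 59 higher and 108 lower. The median log2 change over all genes was 0.01. The count rests on few libraries: it was 47 without E8.75 library 2, 84 without E9.25 library 1, 37 without E9.25 library 2 and 144 without E8.75 library 1. The 2 stages did not overlap for 44.2% of all genes, so non-overlap alone says little. The 26 genes called in all 4 fits with a library left out include Vsnl1, Wnt2, Stard10, Tbx5, Lin28a, Ccnd2, Fn1, Vim, Fabp5 and Phgdh. They also include the sex-linked Xist, Eif2s3y, Ddx3y and Uty, the globin genes Hba-x and Hbb-bh1, and Gt(ROSA)26Sor, described below. Keeping a call in these fits therefore does not tell stage from embryo. The plot of change against level shows that abundant genes passed with small changes and scarce genes only with large ones.

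**Figure D1:**
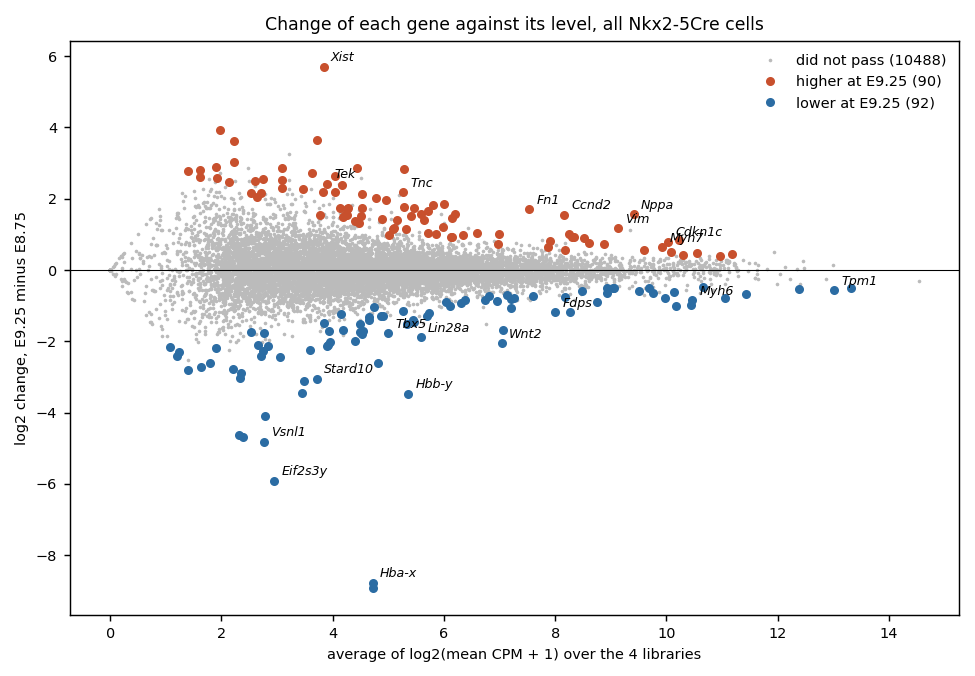
Log2 change from E8.75 to E9.25 (y axis) of each of the 10670 tested genes against the average of its log2(mean CPM + 1) over the 4 libraries (x axis), all cells. The 90 higher and 92 lower genes are coloured; globin, Y-linked and atrial genes hold the lowest places and Xist the highest.

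The natriuretic peptide gene Nppa and the slow myosin gene Myh7, both used as marks of maturing chamber muscle, rose, while the fast myosin gene Myh6 and several thin-filament genes fell. Nppa (chromosome 4, 148000722 to 148002079, plus strand, GRCm38) stood at 400 and 391 mean CPM at E8.75 and at 1088 and 1309 at E9.25. Both E9.25 libraries lay above both E8.75 libraries, by 3.03-fold in the mean (log2 change 1.57 ± 0.29, adjusted p = 0.00814; 1.74 within cardiomyocyte-like cells, adjusted p = 0.0497). The change was 1.44 to 1.70 as each library was left out in turn, with an adjusted p of 0.149 without E9.25 library 2; the call was also lost without E8.75 library 2, and within cardiomyocyte-like cells without any one library (adjusted p up to 0.486). The gain was wide but uneven over cells. Among cardiomyocyte-like cells the median was 40.8 and 59.5 CPM at E8.75 and 199 and 243 at E9.25, and the cell at the 90th percentile went from 1498 and 377 CPM to 3673 and 5274. At a common depth of 5000 counts, 44.6% and 32.9% of these cells had a count of Nppa at E8.75 and 67.1% and 71.2% at E9.25 (unthinned, 91.8% and 94.0%, then 96.2% and 100%). In endothelial-like cells, a class expected to lack the gene, the share at that depth was 0 of 10 cells at E8.75 and 51.6% of 31 at E9.25, and the source of those counts was not tested. Median depth was 104962 to 126206 counts in cardiomyocyte-like cells and 10701 to 169282 in endothelial-like cells.

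Myh7 (chromosome 14, 54970684 to 54994626) stood at 856 and 700 CPM and then at 1334 and 1127 (0.64 ± 0.16, adjusted p = 0.0488), and it lost its call without any one of the 4 libraries (adjusted p up to 0.457). Its neighbour Myh6 (54941921 to 54966927 on the same strand) went the other way, from 2018 and 1781 CPM to 1151 and 990 (-0.85 ± 0.17, adjusted p = 0.0147; its call was lost without either E8.75 library or E9.25 library 2, with adjusted p up to 0.236). The adjacent myosin genes thus moved in opposite directions in the same libraries, and both also passed within cardiomyocyte-like cells, Myh7 at 0.81 (adjusted p = 0.0212) and Myh6 at -0.67 (adjusted p = 0.0498); there Myh7 lost its call without E8.75 library 2 or either E9.25 library and Myh6 without any one library (adjusted p up to 0.459 and 0.544). The 2 genes are close copies of each other, Myh7 overlaps the antisense gene Mhrt, and how shared reads were counted is not stated in the sources used here. Myl2, the ventricular light chain, stood at 3561 and 2992 CPM and then 5224 and 4331, which did not pass in all cells (0.52 ± 0.18, adjusted p = 0.197) but passed within cardiomyocyte-like cells (0.68, adjusted p = 0.0169), a call lost without E8.75 library 2 or either E9.25 library (adjusted p up to 0.428). Nppb, the second natriuretic peptide, did not share the pattern of Nppa: it stood at 285 and 276 CPM and then at 178 and 227 (-0.49 ± 0.36, adjusted p = 0.620).

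Among the thin-filament genes, 4 of 20 tested fell and none rose, with a list median of -0.40 against 0.01 over all genes. Tpm1, alpha-tropomyosin, went from 9611 and 10584 CPM to 7146 and 6665 (-0.57 ± 0.10, adjusted p = 0.00642). Tnnt2, cardiac troponin T, went from 6506 ± 85.8 (SD, n = 2) to 4545 ± 344 CPM (-0.54 ± 0.12, adjusted p = 0.0275). Tnnc1, cardiac troponin C, and Tnnc2, its fast skeletal counterpart, fell by 0.68 and 2.10 on the log2 scale. The 17 tested thick-filament genes had 2 lower (Myh6 and Myl7) and 1 higher (Myh7), with a median of -0.24. Myl7, the atrial light chain that is also high throughout the early heart, went from 11875 and 12610 CPM to 9213 and 8262 (-0.51 ± 0.10, adjusted p = 0.00927). Without E9.25 library 2 none of these passed, and the same holds without E8.75 library 2; with E9.25 library 2 left out the adjusted p was 0.135 for Tpm1, 0.330 for Tnnt2, 0.164 for Tnnc1 and 0.224 for Myl7. Tnnt2 and Tnnc2 (adjusted p up to 0.420) lost their call without any one library. Within cardiomyocyte-like cells the changes were smaller. Tpm1 changed by -0.41 (adjusted p = 0.0373), Tnnc1 by -0.53 (adjusted p = 0.0297) and Tnnc2 by -1.95 (adjusted p = 0.0373). Tpm1 and Tnnc2 lost that call without any one library (adjusted p up to 0.525 and 0.499), and Tnnc1 without E8.75 library 2 or either E9.25 library (up to 0.552). Tnnt2 at -0.37 (adjusted p = 0.134) and Myl7 at -0.34 (adjusted p = 0.0846) did not pass. The share of endothelial-like cells was larger at E9.25, as given above. No member passed among 20 Z-disc, 19 calcium-handling and 13 intercalated-disc genes tested, whose medians were -0.34, -0.16 and -0.24.

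**Figure D2:**
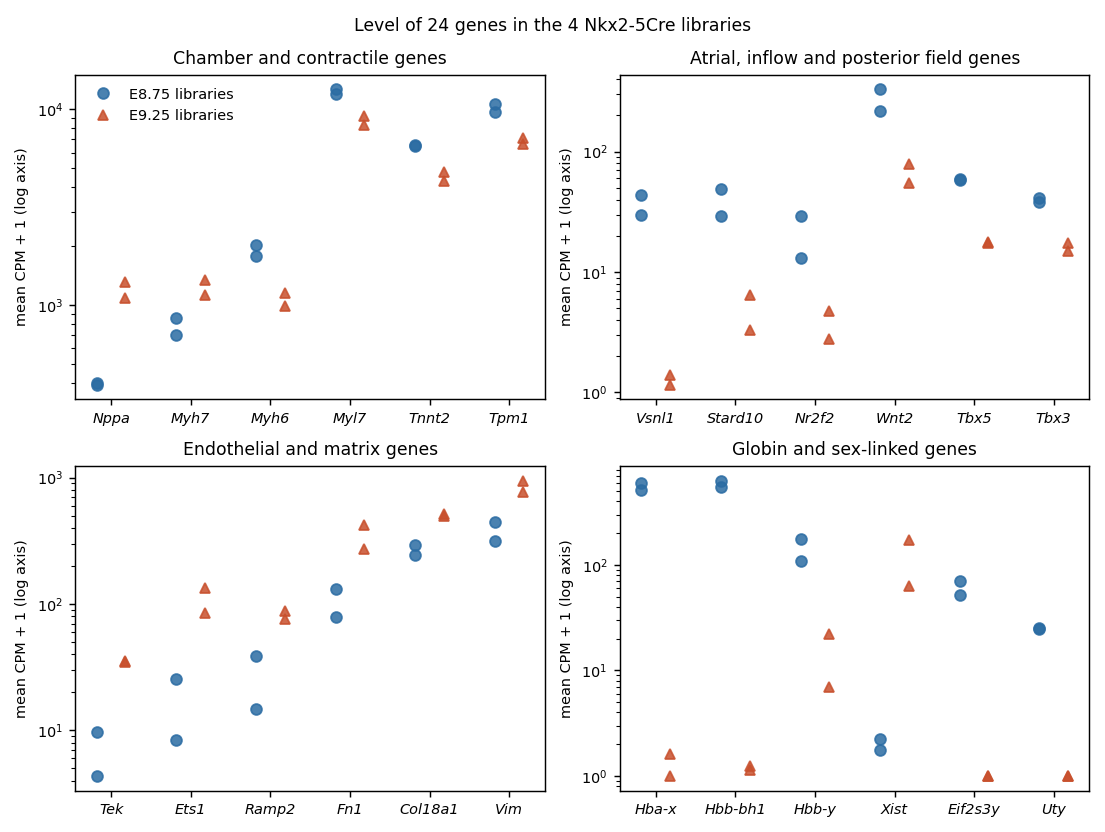
Mean CPM + 1 (log axis) of 24 genes in the 2 E8.75 libraries (circles) and the 2 E9.25 libraries (triangles), in 4 groups of genes; each point is 1 library. All 24 genes had passed the test, so that their 2 stages do not overlap is no further result. The 2 stages did not overlap for 44.2% of all genes tested. The log axes of the 4 panels differ in range.

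The promoters of Nppa and Myl7, chosen because they are well-studied heart genes that moved in opposite directions, are shown from 250 bases before to 50 after the RefSeq start, on the coding strand (GRCm38.p6). Capitals mark matches on either strand, and no marked sites overlap. The letters searched were AGGTGT for the half-site of T-box factors and AAGTG for the site of NK2 factors such as Nkx2-5. They were AGATAA for the site of GATA factors, with TATAAA for the core promoter box of that name. The CArG box is the site of serum response factor. Nppa lies at chr4:148000472-148000771 and Myl7 at chr11:5898733-5899032, minus strand.
Nppa: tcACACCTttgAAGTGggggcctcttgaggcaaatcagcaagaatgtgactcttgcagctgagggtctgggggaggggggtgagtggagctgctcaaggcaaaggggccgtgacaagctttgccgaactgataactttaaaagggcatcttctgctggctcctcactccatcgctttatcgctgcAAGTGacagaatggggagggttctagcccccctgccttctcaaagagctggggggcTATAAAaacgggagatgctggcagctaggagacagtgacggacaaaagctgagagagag
Myl7: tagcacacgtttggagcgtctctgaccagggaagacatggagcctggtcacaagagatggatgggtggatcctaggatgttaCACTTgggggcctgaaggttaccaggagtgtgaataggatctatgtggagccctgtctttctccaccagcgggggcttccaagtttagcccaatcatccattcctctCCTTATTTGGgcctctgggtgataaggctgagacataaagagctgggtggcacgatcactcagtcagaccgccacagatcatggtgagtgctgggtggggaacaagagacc
The Nppa window holds 1 T-box half-site and 2 NK2 sites, and the Myl7 window 1 NK2 site and 1 CArG box. Among 32851 promoter windows of this length, 46.4% hold the NK2 letters, 13.7% the T-box letters, 13.6% the TATA letters, 11.2% the GATA letters and 1.6% a CArG box. A match is a run of letters, not a shown binding site.

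Most called genes of the atrial and inflow list fell. Of 24 such genes 17 were tested; 8 fell, 1 rose (Nppa, which is also a chamber gene) and 8 did not pass, with a median log2 change of -1.13. The 8 were Vsnl1, Stard10, Nr2f2, Wnt2, Tbx5, Tbx3, Myh6 and Myl7. Vsnl1 (chromosome 12, 11325242 to 11436613), a calcium sensor enriched in the sinus region, stood at 28.8 and 42.5 CPM at E8.75 and at 0.40 and 0.16 at E9.25. That is 127-fold lower in the mean (-4.82 ± 0.43, adjusted p = 2.56e-06, and 4.35e-04 in the weakest fit with a library left out). Stard10, a lipid-transfer protein gene, went from 28.1 and 47.8 CPM to 2.27 and 5.47 (-3.05 ± 0.44, adjusted p = 8.32e-04), and kept its call with each library left out. Nr2f2, which encodes the atrial factor COUP-TFII, went from 12.1 and 28.0 CPM to 1.78 and 3.76 (-2.43 ± 0.53, adjusted p = 0.0259; lost without E8.75 library 2 or either E9.25 library, adjusted p up to 0.397). All 3 genes were higher in E8.75 library 2 than in library 1, and low in both E9.25 libraries. Inside endothelial-like cells mean Nr2f2 went the other way, from 0.62 and 0 CPM (8 and 3 cells) to 6.54 and 13.2 CPM. These cells gave 55.4% and 67.8% of its level at E9.25.

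Wnt2 (chromosome 6, 17988940 to 18030585), a ligand made at the inflow pole, stood at 217 and 328 CPM at E8.75 and at 78.0 and 53.9 at E9.25, or 273 ± 78.3 against 65.9 ± 17.1 (SD, n = 2), and fell 4.14-fold (-2.05 ± 0.25, adjusted p = 1.49e-04). Tbx5 (chromosome 5, 119832668 to 119885219) went from 57.2 and 58.7 CPM to 16.3 and 16.8 (-1.77 ± 0.25, adjusted p = 8.21e-04), with close agreement inside each stage. Tbx3, next to it on the chromosome, went from 40.3 and 37.2 CPM to 13.9 and 16.4 (-1.32 ± 0.33, adjusted p = 0.0463), a call lost without any one library (adjusted p up to 0.268). The pacemaker channel gene Hcn4 at -1.46 and Nr2f1 at -1.52 did not pass. Of 20 posterior second heart field and Hox genes 15 were tested and 5 fell, none rose, with a median of -1.08 (-1.27 with the 3 members at 0 in 1 stage set at their bound). Among them were Wnt2, Tbx5, Sfrp5 (14.5 and 63.3 CPM, then 4.85 and 9.47) and Hoxb1 (3.00 and 6.11, then 0 and 0.02). Sfrp5 and Hoxb1 lost their call without E8.75 library 2 or either E9.25 library (adjusted p up to 0.614 for Sfrp5 and 0.342 for Hoxb1).

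The fall of these genes was also seen within cardiomyocyte-like cells, where 71 of 10416 genes passed (0.682%) and, of the atrial list, 6 members fell and 1 rose (16 tested, median -1.08). There Vsnl1 changed by -4.83, Stard10 by -2.95, Nr2f2 by -3.19, Wnt2 by -1.88 and Tbx5 by -1.58 on the log2 scale, all with an adjusted p of 0.0212 or less, while Tbx3 at -1.13 did not pass. Vsnl1 and Wnt2 kept their call with each library left out; Stard10 lost it without E8.75 library 2 or E9.25 library 1 (adjusted p up to 0.158), and Tbx5 and Nr2f2 without any one library (adjusted p up to 0.145 and 0.459). For Vsnl1 the share of cells with any count went from 44.7% and 56.0% to 3.8% and 2.7%, and at 5000 counts from 10.8% and 20.7% to 0 of 149 cells, which allows a share of up to 2.01% of cells with a count. For Stard10 it went from 47.1% and 50.0% to 11.4% and 16.0%. In E9.25 endothelial-like cells, which serve as background, 0 of 32 had a count of Vsnl1 and 9.4% one of Stard10. Wnt2 was in most cells at both stages (90.6% and 94.0%, then 79.7% and 70.7%), and its median was 137 and 226 CPM, then 54.9 and 14.8; 56.2% of E9.25 endothelial-like cells also had a count. Tbx5 was in 71.8% and 79.8% of cells and then in 43.0% and 50.7%, and 15.6% of E9.25 endothelial-like cells had a count. Counts of Vsnl1 and Stard10 were thus seen in fewer cells, while Wnt2 was still seen in most cells at a lower level. The shares of Stard10 and Wnt2 are at full depth, and Wnt2 was the more abundant gene. Fewer cells and less RNA per cell are therefore not told apart by these shares. Which part of the heart each picked cell came from is not stated in the sources used here, and its part in these values was not tested.

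**Figure D3:**
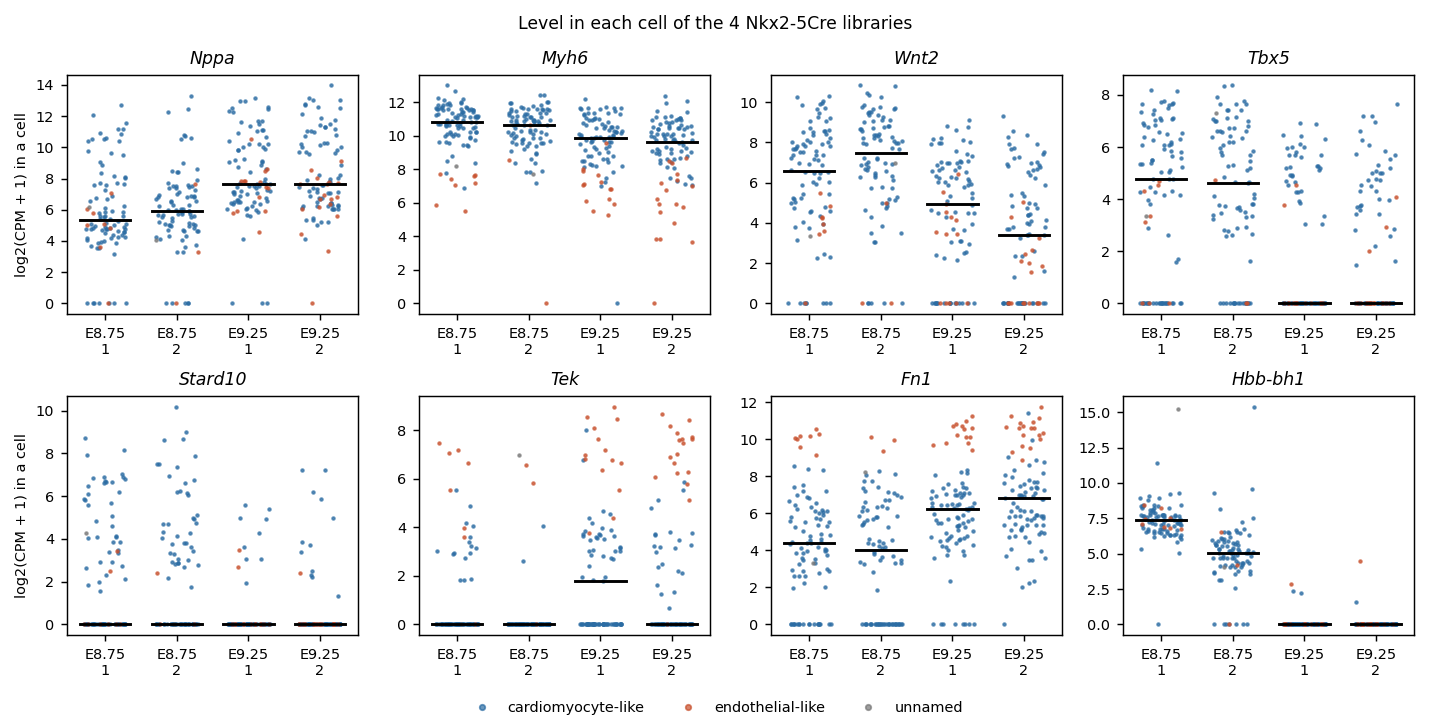
Log2(CPM + 1) of 8 genes in each of the 368 cells, by library (x axis: stage and library number), coloured by class; the black bar is the median of all cells of the library. Nppa shifts up and Myh6 and Wnt2 down over most cells, and Stard10 has a count in fewer cells at E9.25. Tek, a marker used to name that class, and the highest Fn1 values sit in endothelial-like cells. Hbb-bh1 is in nearly all E8.75 cells.

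Of 24 tested genes of the outflow tract and anterior second heart field, 1 rose and none fell, with a median of 0.13. The gene that rose was Foxc2, a forkhead factor gene, at 5.25 and 1.05 CPM and then 12.7 and 30.3 (2.52 ± 0.60, adjusted p = 0.0376; lost without E8.75 library 2 or either E9.25 library, adjusted p up to 0.498). Endothelial-like cells gave 92.8% and 89.1% of the Foxc2 level at E8.75 and 83.1% and 71.3% at E9.25, and its call was lost without those cells. Isl1, the second heart field factor, stood at 15.4 and 7.98 CPM and then at 27.6 and 27.9 (1.23 ± 0.40, adjusted p = 0.163). Of 25 tested guidance genes 2 rose, with a median of 0.40: Efnb2, described with the Notch genes, and Nrp2. Nrp2, a semaphorin co-receptor, rose from 30.1 and 57.8 CPM to 105 and 155 (1.56 ± 0.34, adjusted p = 0.0225; lost without E8.75 library 1 or E9.25 library 2, adjusted p up to 0.300). Tnc, the matrix glycoprotein tenascin-C and a member of no list, rose from 9.53 and 30.3 CPM to 72.3 and 93.9 (2.18 ± 0.49, adjusted p = 0.0276; lost without E8.75 library 1 or either E9.25 library, adjusted p up to 0.283). Within cardiomyocyte-like cells Tnc was found in 20% and 35.7% of cells at E8.75 and in 69.6% and 70.7% at E9.25, against 9.1% and 50.0% of endothelial-like cells at the 2 stages. At 5000 counts those shares were 4.2% and 28.9% in cardiomyocyte-like and 10% and 3.2% in endothelial-like cells. Both Nrp2 (1.77, adjusted p = 0.0210) and Tnc (2.38, adjusted p = 0.0259) passed within cardiomyocyte-like cells, and both lost that call without E8.75 library 1 or E9.25 library 2, Tnc also without E9.25 library 1 (adjusted p up to 0.409).

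Among the other heart transcription factors most did not pass. Of 30 tested, 3 fell (Foxh1, Tbx5 and Tbx3) and none rose, with a median of -0.15. Foxh1, the partner of Smad proteins in Nodal signalling, went from 13.9 and 10.5 CPM to 1.96 and 2.18 (-2.11 ± 0.48, adjusted p = 0.0309; lost without any one library, adjusted p up to 0.202). Nkx2-5, the gene whose Cre marks these cells, stood at 218 and 208 CPM and then at 211 and 150 (-0.28 ± 0.16, adjusted p = 0.514). Of 24 tested ventricular and trabecular genes 2 rose, Nppa and Myh7, with a median of 0.20; the Iroquois factor genes Irx1 and Irx3 stood at -1.24 and -1.21 and did not pass. Of 12 tested ion channel and conduction genes 1 rose, with a median of 0.12. The gap junction gene Gja1 rose from 13.8 and 12.6 CPM to 37.4 and 32.1 (1.31 ± 0.26, adjusted p = 0.0148), and it passed within cardiomyocyte-like cells too (1.69, adjusted p = 0.0373); both calls were lost without any one library (adjusted p up to 0.135 and 0.449). Mif and Cxcr2, a cytokine gene and a chemokine receptor gene, stood at 3253 and 3139 CPM, then 3272 and 3146 for Mif (-0.01 ± 0.10), and at 46.3 and 67.2, then 95.1 and 71.9 for Cxcr2 (0.54 ± 0.23, adjusted p = 0.323).

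**Figure D4:**
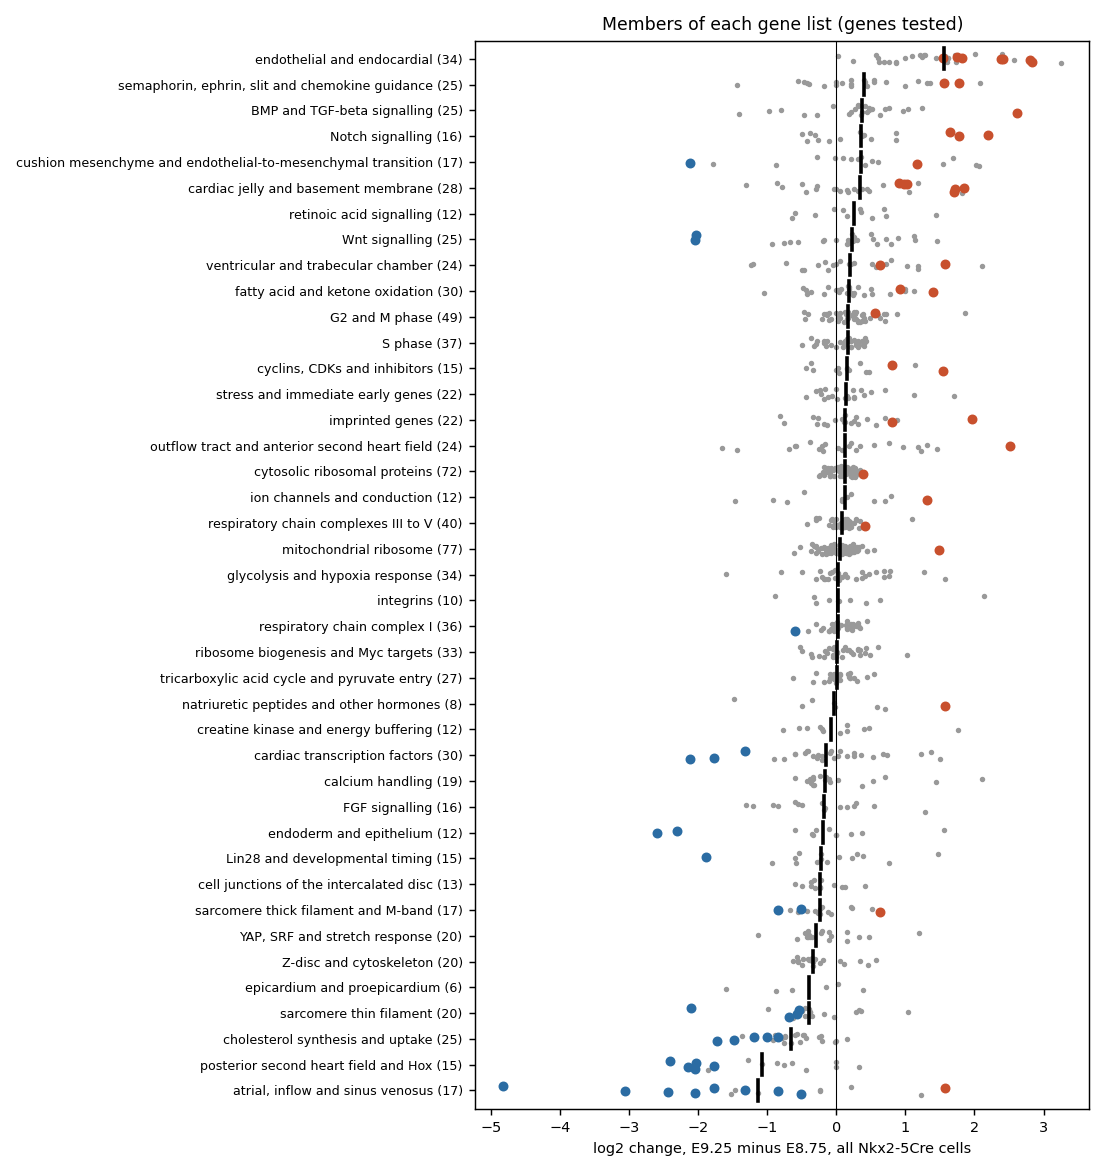
Log2 change from E8.75 to E9.25 (x axis, all cells) of the tested members of each gene list with at least 6 of them, the blood and sex lists left out; black bars are list medians, orange members rose, blue members fell and grey ones did not pass. The endothelial list has the highest median (1.56), and the atrial (-1.13) and posterior second heart field and Hox (-1.08) lists have the lowest, in that order unless members at 0 are set at their bound (-1.13 and -1.27).

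Endothelial and endocardial genes stood higher at E9.25. All 34 tested members of the list had a positive change, 7 rose, and the list median was 1.56. Over all genes 50.8% had a positive change and 0.843% were called higher. Tek, the angiopoietin receptor, stood at 8.63 and 3.36 CPM and then at 33.8 and 34.3 (2.42 ± 0.45, adjusted p = 0.00832). Ets1, an endothelial transcription factor gene, stood at 24.4 and 7.45 CPM and then at 84.2 and 132 (2.84 ± 0.53, adjusted p = 0.00814). Ramp2, Gngt2, Cd34, Sox7 and Npr3 also rose. The junction genes Pecam1 (5.69 and 2.39 CPM, then 14.0 and 16.3) and Cdh5 (10.3 and 2.81, then 11.9 and 17.3) did not pass. None of the 7 was called without E8.75 library 2, the library with 3 endothelial-like cells; Tek then had an adjusted p of 0.176 and Ets1 of 0.185. None was called without E9.25 library 2 either, and the weakest adjusted p over the 7 was 0.497, for Ramp2. The summed level of the 35 list members was 592 and 334 CPM at E8.75 and 995 and 1450 at E9.25, beside endothelial-like shares of 8.5%, 3.4%, 15.1% and 19.4%.

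Within cardiomyocyte-like cells none of the 22 list members tested there passed, with a median of 0.95. Tek, Ets1, Ramp2 and Pecam1 are among the markers that named the endothelial-like clusters. A large part of their level in that class therefore follows in part from how the class was named. Endothelial-like cells gave 77.2% and 50.6% of the Tek level at E8.75 and 78.4% and 91.0% at E9.25. For Ets1 these shares were 91.2%, 75.3%, 82.2% and 95%. Inside the endothelial-like cells mean Tek was 78.3 and 49.9 CPM (8 and 3 cells) at E8.75 and 176 and 161 CPM (14 and 18 cells) at E9.25. Ramp2, the adrenomedullin receptor partner, was 391 and 339 and then 439 and 418 CPM inside these cells, and Pecam1 64.5 and 66.7 and then 69.9 and 79.9. Inside the class the levels of Pecam1 and Ramp2 lay close together at the 2 stages and those of Tek did not. Ets1 also stood higher there at E9.25 (261 and 165 CPM, then 460 and 649), as did Sox7 (3.52 and 0, then 42.8 and 25.8). The endothelial gene Plvap stood lower (417 and 332 CPM, then 287 and 278). With 3 cells in 1 library none of this was tested.

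Of 28 tested genes of the cardiac jelly and basement membrane, 6 rose and none fell, with a median of 0.34. Fn1, fibronectin (chromosome 1, 71585520 to 71653200), went from 131 and 78.3 CPM to 272 and 420 (1.71 ± 0.24, adjusted p = 8.21e-04). Hapln1, which links hyaluronan to proteoglycans, Adamts1, a protease of versican, and the collagens Col4a1, Col4a2 and Col18a1 were the others, with log2 changes of 0.91 to 1.85. These 5 lost their call without E8.75 library 2 and without E9.25 library 2 (adjusted p up to 0.342), while Fn1 kept it with each library left out. Vim, the intermediate filament of mesenchymal and endothelial cells, went from 444 and 312 CPM to 768 and 946 (1.17 ± 0.16, adjusted p = 6.45e-04). The summed level of the 22 cushion mesenchyme markers was 707.6 and 556.1 CPM at E8.75 and 1069.5 and 1307.9 at E9.25; of the 17 tested, Vim rose and Pdgfra fell (-2.12, adjusted p = 0.0182), and the part of such cells in the matrix changes was not tested. Within cardiomyocyte-like cells none of the 6 matrix genes passed; Fn1 stood at 1.24 ± 0.31 (adjusted p = 0.0782) and Col18a1 at 0.22 ± 0.19 (adjusted p = 0.827). Endothelial-like cells gave 69.3% and 40.0% of the Fn1 level at E8.75 and 76.8% and 70.3% at E9.25. Fabp5, a fatty-acid binding protein, rose from 245 and 223 CPM to 470 and 429 (0.92 ± 0.12, adjusted p = 4.42e-04), but within cardiomyocyte-like cells it stood at 0.18 (adjusted p = 0.874). Fabp5 kept its call in all cells with each library left out. Inside the endothelial-like cells its mean was 564 and 555 CPM at E8.75 and 1590 and 1340 at E9.25.

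Of 16 tested Notch pathway genes 3 rose, with a median of 0.36: the receptor gene Notch1, the target Hes1 and the ligand Efnb2, an ephrin of arteries that is listed with them. Hes1 stood at 34.3 and 24.1 CPM and then at 58.2 and 150, and its call was lost without either E8.75 library or E9.25 library 2 (1.65 ± 0.39, adjusted p = 0.0376, then up to 0.514). Notch1 stood at 7.42 and 4.31 CPM and then at 15.5 and 56.8, and was lost in the same way (adjusted p = 0.0462, then up to 0.561). Efnb2 stood at 19.9 and 20.2 CPM and then at 60.3 and 85.6 (adjusted p = 0.00788, then up to 0.159 without E8.75 library 2 or E9.25 library 2). Endothelial-like cells gave 84.2% and 85.4% of the Notch1 level at E9.25, but 31.8% and 36.2% of that of Hes1. Of the 25 tested BMP and TGF-beta genes only Tgfbr2, the type II receptor, passed (0.09 and 0.42 CPM, then 6.2 and 7.24; adjusted p = 0.0345, and up to 0.166 without either E8.75 library). At E9.25 endothelial-like cells gave 97.6% and 98.0% of the Tgfbr2 level. Tgfbr2 reached the 5 CPM limit of the test only in the 2 Nkx2-5Cre E9.25 libraries. It was thus tested only through the stage where it was high, and was not tested with either of these libraries left out. None of 16 FGF and none of 12 retinoic acid genes passed, nor did any integrin gene among 10; over all genes limma had 1385 at an unadjusted p under 0.05.

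**Figure D5:**
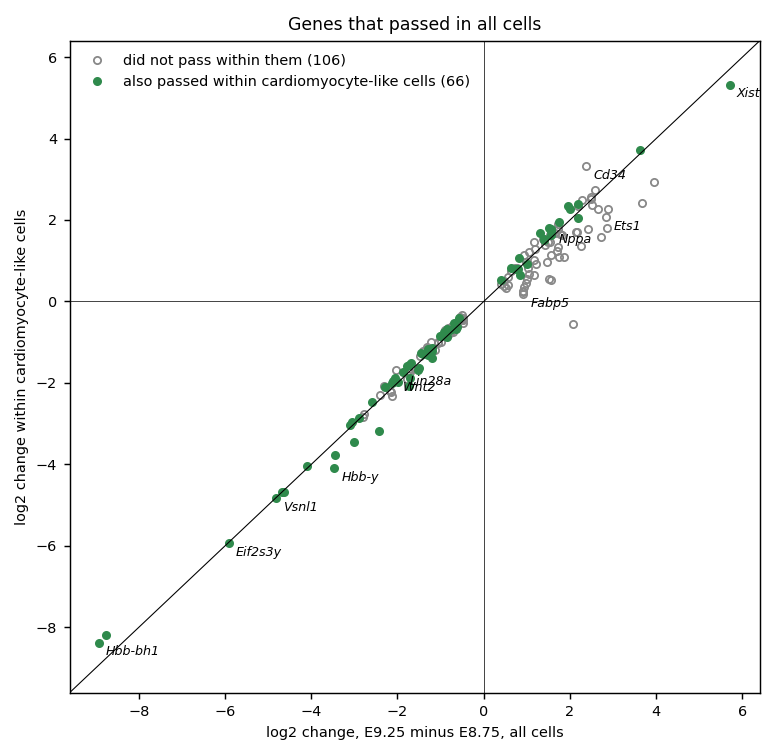
Log2 change of the called genes in all cells (x axis) against the change of the same genes within cardiomyocyte-like cells (y axis), for the 172 that were tested in both; filled points also passed within those cells. Genes that fell lie along the diagonal, and many genes that rose lie below it.

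Of the 71 genes called within cardiomyocyte-like cells, 23 were higher (0.221% of the genes tested there) and 48 lower (0.461%). Of the 182 genes called in all cells 172 could be tested there; 171 kept their direction and 66 were called. The exception, named after its values were seen, was Rai14, which stood at 2.06 in all cells and -0.55 within them. The count was 39, 17, 29 and 21 without E8.75 library 1, E8.75 library 2, E9.25 library 1 and E9.25 library 2. The 2 tests share most of their cells.

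Growth and timing genes changed in few places. Lin28a (chromosome 4, 134003330 to 134018841), which blocks let-7 maturation in early cells, went from 62.2 and 132 CPM to 25.8 and 22.9 (-1.88 ± 0.25, adjusted p = 4.42e-04). It was the only one of 15 tested timing genes to pass, and it passed within cardiomyocyte-like cells as well (-1.74, adjusted p = 0.00214, and 0.111 without E8.75 library 2). Ccnd2, cyclin D2, rose from 258 and 108 CPM to 525 and 469 (1.55 ± 0.24, adjusted p = 0.00193). Its mean in cardiomyocyte-like cells went from 271 and 112 to 577 and 497 CPM (1.62, adjusted p = 0.00406, and up to 0.135 without E8.75 library 2 or E9.25 library 1). The median of Ccnd2 in those cells, which was not tested, went from 55.7 and 54.3 to 418 and 367 CPM. The CDK inhibitor gene Cdkn1c, which is imprinted, rose in the same libraries, from 798 and 797 CPM to 1286 and 1534 (0.80 ± 0.15, adjusted p = 0.00984; lost without either E8.75 library or E9.25 library 2, adjusted p up to 0.206). Dlk1, another imprinted gene, rose from 8.40 and 25.6 CPM to 77.1 and 48.8 (1.96 ± 0.40, adjusted p = 0.0173; lost without E8.75 library 1 or either E9.25 library, adjusted p up to 0.171). None of 37 S-phase genes passed (median 0.17), and of 49 G2 and M genes 1 rose, Top2a (235 and 238 CPM, then 363 and 346; adjusted p = 0.0284, lost without any one library), with a median of 0.17. Of 15 tested cyclin, CDK and inhibitor genes the 2 that passed were Ccnd2 and Cdkn1c. Over all genes 0.843% were called higher, so 1 of 49 G2 and M genes is no result about that list.

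No glycolysis or hypoxia gene passed among 34, and none of 27 tricarboxylic acid cycle genes did. In respiratory complex I 1 of 36 fell (Ndufa12, -0.59), in complexes III to V 1 of 40 rose (Cox7c, 0.41), and the mitochondrial ribosome had 1 riser among 77 (Mrps27, 1.49). Without E8.75 library 2 these 3 had an adjusted p of 0.397, 0.361 and 0.224. Of 30 fatty acid and ketone genes 2 rose: Fabp5 and Oxct1, the enzyme that lets heart muscle burn ketone bodies (40.3 and 22.0 CPM, then 75.6 and 86.9; 1.40 ± 0.31, adjusted p = 0.0276; lost without E8.75 library 2 or either E9.25 library, adjusted p up to 0.425). Phgdh, the first enzyme of serine synthesis, rose from 20.7 and 21.1 CPM to 68.4 and 48.7 (1.40 ± 0.21, adjusted p = 9.47e-04). Medians of these lists lay between 0.01 and 0.19. Over all genes tested 1.71% passed, 0.843% higher and 0.862% lower. The single calls in the respiratory and mitochondrial ribosome lists are therefore no result about those lists.

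Most genes of cholesterol synthesis and uptake had a negative change. This list was drawn up after Fdps and Idi1 had been seen among the lowest genes, so its count is a description only. Of its members 24 of 25 had a negative change, 5 fell and the median was -0.66. Over all genes 50.8% had a positive change and 0.862% were called lower. Fdps, farnesyl diphosphate synthase, went from 364 and 415 CPM to 163 and 180 (-1.19 ± 0.17, adjusted p = 8.57e-04; -1.21 within cardiomyocyte-like cells, adjusted p = 0.00166). Idi1, Acat2, the sterol-sensing factor gene Srebf2 and the cholesterol transporter gene Npc1 also fell, with log2 changes of -0.85 to -1.72. Each of these 4 lost its call without either E8.75 library and without E9.25 library 2, the weakest value being that without E9.25 library 2 (adjusted p 0.364 for Idi1, 0.472 for Acat2, 0.293 for Srebf2) or without E8.75 library 2 (0.473 for Npc1). In the Isl1Cre step the same list had a median of -0.65, and 2 members fell, Msmo1 (-1.37) among them, in a step where 58 of 10670 genes passed (0.544%), 21 higher (0.197%) and 37 lower (0.347%).

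The other abundant genes with the largest falls were Thbs4, a thrombospondin (257 and 224 CPM, then 82.4 and 67.3; -1.69 ± 0.27, adjusted p = 0.00195), and Dhrs7, Kifc2, Pvrl1, Idh1, Cramp1l, Ubb, Mpdu1, Kmt2d and 5430431A17Rik, with log2 changes of -1.01 to -1.52. The last, an unnamed transcript at 1614 and 1668 CPM and then 813 and 835, kept its call with each library left out, as did Kifc2. Thbs4 and Idh1 lost theirs without E9.25 library 2 (adjusted p = 0.0603 and 0.140), and the others without E8.75 library 2 and without at least 1 E9.25 library (adjusted p up to 0.471). The largest rises among abundant genes not yet named were Tagln2, an actin-binding protein gene, Gas7 and Tmem2, a hyaluronan-degrading enzyme gene, with changes of 1.46 to 1.56. Tagln2, Gas7 and Tmem2 did not pass within cardiomyocyte-like cells (adjusted p = 0.351, 0.245 and 0.720), and in all cells they lost their call without E8.75 library 2 (adjusted p = 0.0670 for Tagln2 and 0.418 for Tmem2; Gas7 up to 0.271 without any one library).

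The same step of Isl1Cre cells shares no library with that of Nkx2-5Cre cells but has 1 library at E9.25, which was assumed to vary like the others, so each lineage difference also rests on that embryo. The test of the difference between the 2 steps called 71 of 10670 genes (0.665%), 51 with a higher change in Nkx2-5Cre (0.478%) and 20 with a lower one (0.187%). The count was 38 without Nkx2-5Cre E8.75 library 2 and 30 without E9.25 library 2. Nppa stood at 1.57 against 1.67 for Isl1Cre, a difference of -0.10 ± 0.46 that did not pass (adjusted p = 0.971). Vsnl1 stood at -4.82 against -3.80 and Wnt2 at -2.05 against -1.52, and these differences did not pass either (adjusted p = 0.647 and 0.702). The change of Tbx5 differed between the lineages. Tbx5 stood at 31.9 and 47.8 CPM in the Isl1Cre E8.75 libraries and at 47.8 in the E9.25 library, a change of 0.34 against -1.77 (difference -2.10 ± 0.40, adjusted p = 0.0142; lost without either library 2 of Nkx2-5Cre or Isl1Cre E8.75 library 1, adjusted p up to 0.0650). Endothelial genes moved in opposite directions: the list median was 1.56 for Nkx2-5Cre and -1.40 for Isl1Cre, and 7 members passed the test of the difference. Tek stood at 19.1 and 18.2 CPM and then 3.54 in Isl1Cre (difference 4.49, adjusted p = 0.00320). Endothelial-like cells were 7 of 62, 7 of 81 and 2 of 91 cells in these Isl1Cre libraries.

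The step before, E8.25 to E8.75, shares the E8.75 libraries, so its values are given beside and not compared; 26 genes passed in it (0.244%), 14 higher (0.131%) and 12 lower (0.112%). In the order E8.25, E8.75, E9.25, Vsnl1 stood at 17.4 and 9.81, then 28.8 and 42.5, then 0.40 and 0.16 CPM. Wnt2 stood at 91.5 and 133, then 217 and 328, then 78.0 and 53.9. Nppa stood at 546 and 332 at E8.25, against 8.87 and 17.2 at E7.75. Lin28a stood at 229 and 203 CPM at E7.75 and 90.3 and 102 at E8.25. Among these 4 stages both E8.75 libraries were the highest for Vsnl1 and for Wnt2, and both E9.25 libraries the lowest for Lin28a.

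A further gene, noticed after its values were seen, belongs to the reporter locus. Gt(ROSA)26Sor, the transcript of the Rosa26 locus into which the reporter is built (chromosome 6, 113067428 to 113077333), stood at 0.23 and 0.43 CPM at E8.75 and 12.1 and 20.1 at E9.25 (3.62 ± 0.47, adjusted p = 3.33e-04). At E7.75 it stood at 12.8 and 15.6 and at E8.25 at 2.43 and 1.52, and in Isl1Cre at 24.4 and 9.36 at E8.75 and 22.0 at E9.25. It was found in 1.2% and 2.4% of cardiomyocyte-like cells at E8.75 and in 39.2% and 46.7% at E9.25, where 28.1% of endothelial-like cells had a count; at 5000 counts the shares in cardiomyocyte-like cells were 0 of 165 at E8.75, which allows a share of up to 1.82%, and 6.7% at E9.25. Its call within cardiomyocyte-like cells (3.73, adjusted p = 0.00166) was lost without E9.25 library 2 (adjusted p = 0.0820). The gene overlaps Thumpd3 on the other strand, and the number of reporter alleles in each embryo is not stated in the sources used here.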

How the data were processed

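Single heart cells were picked by hand and sequenced from their 3' ends with a modified Smart-seq2 protocol, per the labels' protocols. Tools listed in the submitters' processing notes are HTSeq, TopHat2 2.0.12 and CASAVA 1.8, with the build mm10. The authors deposited CPM for each gene in each cell. Low values, reaching 20 times the smallest step of a cell, came out as whole multiples of that step (tolerance 0.1 steps) in 100% of cases, so counts were recovered. The sources used here do not state whether these are reads or molecules, and intervals cover counting error only.

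A library's level is the mean CPM over its kept cells. limma 3.58.1 (trended empirical Bayes, R 4.3.3) was run on log2(mean CPM + 1) with TMM scaling, whose factors ran from 0.957 to 1.037, with 1 mean per group over all 15 libraries and 7 residual degrees of freedom. Changes on this scale understate those of low genes. Every p-value on a gene is limma's, adjusted by Benjamini-Hochberg over all genes tested, with a threshold of 0.05; errors after ± are SE unless marked SD. The fit within cardiomyocyte-like cells used the 13 libraries with at least 10 such cells (6 residual degrees of freedom).

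Cells were clustered with scanpy 1.11.5 and leidenalg 0.10.2 (2000 variable genes, 30 components, 15 neighbours, resolution 1.0). A cluster took the class with most markers among its 10 leading genes, if at least 3 markers and a share of 0.5 of that class's list were 2-fold above the 25th percentile of the other clusters and present in 25% of its cells. The markers had been listed, and this scoring was set after seeing the data. Blood and sex-linked genes could not be leading genes, so no cluster could take the blood class. Doublets were not called, because each cell had been picked on its own. No cell name or cell column was shared between libraries, and libraries of a group differed by more than counting noise (chi-square per degree of freedom 24.2 at E8.75 and 33.6 at E9.25).

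The comparison, gene lists and tests were chosen with earlier results of these data known. Genes were named by rule: the 15 largest rises and falls among genes averaging 5 or more on the log2 scale, up to 6 called and 4 abundant members of each list, fixed heart and sex-linked genes, and the 8 largest differences between lineages each way. Among lists not described in the report, none of 12 energy-buffering, 22 stress, 20 stretch-response, 33 ribosome biogenesis, 6 epicardial and 4 neural genes passed, no macrophage gene was tested, and of 25 Wnt genes 2 fell (Wnt2 and Sfrp5). Values of some genes that the rule would name are not reported here. On counts simulated for this comparison, limma was run over 10224 genes. It found 98 of 100 genes changed by 2 and 61 of 100 changed by 1 on the log2 scale, with 9 false calls among 168. The changed genes were drawn only from those well above the 5 CPM limit of the test. Noise was independent between libraries, and neither cell shares nor embryos varied. These rates therefore do not carry over to scarce genes or to the calls in the real libraries. edgeR 4.0.16 and DESeq2 1.42.0 were alternatives on counts summed per library; other alternatives changed the pseudocount, filter, scaling, cells and libraries. Gene positions are from GENCODE vM21 (GRCm38, the build named mm10), and promoters from RefSeq.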

Additional observations from a re-analysis of the deposited data

Results flagged for a closer look

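The genes below are those named in the report or by its rule whose change from E8.75 to E9.25 differed between Nkx2-5Cre and Isl1Cre cells by the test of the difference itself (limma, adjusted p under 0.05, 2 libraries against 2 for Nkx2-5Cre and 2 against 1 for Isl1Cre). Values are log2 changes of Nkx2-5Cre minus those of Isl1Cre. The embryos differ as well as the lineages, and embryo and lineage cannot be told apart. Each of the 6 libraries of groups with 2 was also left out in turn, and a call is described as lost where the adjusted p then passed 0.05.

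Blood genes had the lowest differences, with -16.41 for Hbb-bh1, -14.28 for Hba-x, -6.24 for Hbb-y and -4.55 for Alas2. Alas2 was tested only through the Nkx2-5Cre E8.75 libraries, where it was high. The call for Alas2 was lost without Nkx2-5Cre E9.25 library 2 or Isl1Cre E8.75 library 2 (adjusted p up to 0.124). Hbb-bh1 stood at 0 CPM in both Isl1Cre E8.75 libraries and at 169 in the E9.25 library, the reverse of the Nkx2-5Cre order. Sex-linked genes followed the embryos: the difference was -6.13 for Eif2s3y, -5.41 for Ddx3y, -4.84 for Uty, -4.22 for Kdm5d and 5.84 for Xist. The call for Kdm5d was lost in 5 of the 6 fits (adjusted p up to 0.131).

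Endothelial genes had positive differences, of 4.72 for Plvap, 4.49 for Tek, 4.36 for Gngt2, 4.26 for Ets1, 3.91 for Ramp2 and 3.76 for Cd34. Of these, Cd34 was lost in 4 of the 6 fits (adjusted p up to 0.189) and Ets1 in 3 (up to 0.112). Matrix and cytoskeleton genes did too, with 3.14 for Hapln1, 2.91 for Fn1, 1.98 for Col18a1, 1.97 for Tagln2 and 1.92 for Vim. Tagln2 was lost in 4 of the 6 fits (adjusted p up to 0.0754) and Hapln1 in 3 (up to 0.0680). Endothelial-like cells made up 11.3%, 8.6% and 2.2% of the Isl1Cre libraries, and their part in these differences was not tested.

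Among other genes, Tbx5 differed by -2.10 and the natriuretic peptide gene Nppb by -2.58. Tbx5 was lost in 3 of the 6 fits (adjusted p up to 0.0650) and Nppb in 5 (up to 0.142). Pyy, a gut hormone gene, differed by 4.81: in Isl1Cre cells its change was -4.22, and in Nkx2-5Cre cells 0.59, which did not pass. Tubb5, a tubulin gene, differed by -1.59. Igfbp4 differed by 2.54, D17H6S56E-5 by 2.55 and Cramp1l by 2.03. The differences were -2.77 for Spink1, -2.36 for Trmt11, -1.84 for Tmem47, -1.51 for Homer2, -1.45 for Gm1821 and -1.16 for Ndufa12. Cramp1l was lost in 4 of the 6 fits, D17H6S56E-5, Spink1 and Tmem47 in 3, Ndufa12 in 2 and Homer2 in 1 (adjusted p up to 0.145, the value for Cramp1l).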

How the results depend on the processing

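In all cells 182 genes passed. The count was 100 with no filter on low values, 294 with DESeq2, 119 with only the Nkx2-5Cre libraries in the fit, 40 with cells thinned to 5000 counts and 100 without endothelial-like cells, and 37 to 144 with a library left out. It stayed within 1.5 times of the main count under the other alternatives run. Within cardiomyocyte-like cells 71 passed, against 11 with no filter, 185 with DESeq2 and 17 to 39 with a library left out. For the difference between the lineages 71 passed, against 122 with DESeq2 and 30 to 87 with a library left out. Of the 182 genes, 17 were called under all 18 settings and 90 were lost without endothelial-like cells. The causes were not tested. The change of Mif (-0.01) became 0.01 without TMM scaling or with thinned cells, between -0.04 and 0.02 with a library left out and 0.10 without endothelial-like cells; that of Pyy (0.59) became -0.32 with thinned cells and that of Cdh5 (1.21) became -0.11 without endothelial-like cells. None of these 3 genes passed in all cells. The fit on cells with at least 3000 genes within the cardiomyocyte-like class (86) and that without the E7.75 libraries (152) were chosen after seeing the data.

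With the replicate number as a block the counts were 184 in all cells, 77 within cardiomyocyte-like cells and 75 for the difference between lineages, and 11 of the 182 genes were lost. The deviations of same-numbered libraries correlated at -0.03 to 0.16 over 21 pairs of groups (median 0.02), so the numbers were not taken to pair libraries.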

Other observations

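Several genes outside the lists kept their call with each of the 4 libraries left out; they are given here because of that, after their values were seen. Csrp2, a muscle LIM protein family gene, stood at 1719 and 2271 mean CPM at E8.75 and at 993 and 1020 at E9.25 (log2 change -0.99 ± 0.13, limma adjusted p = 4.72e-04). Rnd3, a small GTP-binding protein gene, stood at 45.1 and 44.0 CPM and then at 17.0 and 18.5 (-1.30 ± 0.20, adjusted p = 0.00193). Ddt, a close relative of Mif, stood at 599 and 589 CPM and then at 318 and 323 (-0.91 ± 0.13, adjusted p = 8.32e-04), while Mif itself stood at -0.01. Both E9.25 libraries lay below both E8.75 libraries for these 3 genes, as they did for 20.9% of all genes tested. Tmsb4x, thymosin beta 4, an actin-binding peptide, stood at 934 and 872 CPM and then at 1606 and 1647 (0.83 ± 0.12, adjusted p = 8.32e-04). Both E9.25 libraries lay above both E8.75 libraries, as for 23.3% of all genes tested. Tmsb4x lies on chromosome X, and sex cannot be told apart from stage here. D17H6S56E-5 stood at 7.15 and 6.42 CPM and then at 32.9 and 36.6 (2.18 ± 0.32, adjusted p = 8.32e-04). All 5 also passed within cardiomyocyte-like cells, but there Csrp2 lost its call without E8.75 library 2 or E9.25 library 1 and the other 4 without any one library (adjusted p up to 0.135 for Csrp2, 0.290 for Rnd3, 0.156 for Ddt, 0.205 for Tmsb4x and 0.145 for D17H6S56E-5).

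Of the endoderm genes, which were included as markers of neighbouring cells, 2 of 12 tested fell, with a median of -0.19. Spink1, a trypsin inhibitor gene, stood at 59.1 and 78.5 CPM and then at 8.41 and 13.1 (-2.60 ± 0.33, adjusted p = 2.98e-04; -2.47 within cardiomyocyte-like cells, adjusted p = 0.00166, and 0.0821 without E8.75 library 2). Cldn7, a claudin of epithelia, stood at 5.82 and 3.01 CPM and then at 0 and 0.11 (-2.31 ± 0.46, adjusted p = 0.0134, and up to 0.103 without E8.75 library 1 or either E9.25 library). None of the cells of these 4 libraries fell into the endoderm-like cluster. The summed level of the endoderm list was 690 to 1202 CPM over the 4 libraries.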
